A study of Homo sapiens with 6 samples.

Results

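RNA of 44 genes that act in G2 phase and mitosis was compared between 3 pairs of human prostate cancer cell lines. The genes were taken by name from the deposited tables, and 44 of 44 were found among 47032 gene symbols. All 44 were among the 16199 genes tested, those whose scaled FPKM averaged 1 or more over the libraries; FPKM is a read count per gene length and library total, and the scaling is one factor per library. The castration-sensitive lines were LnCaP and LAPC4, grown in RPMI with 10% fetal bovine serum, and VCaP, grown in DMEM with 10% fetal bovine serum. The castration-resistant lines were LnCaP-abl, VCaP-CR and LAPC4-CR, all grown in RPMI with 10% charcoal-stripped serum and B27 supplement. Charcoal stripping removes steroid hormones from serum. No line received another treatment, and each resistant line carries the name of a sensitive line, which is taken here as its parent. There was 1 library per line, so a difference within a pair has no replicate check and no p-value. State and medium differed together in every pair, and in the VCaP pair the base medium differed too, so their parts in a difference cannot be told apart. Whether the 3 libraries of a state came from separate experiments is not given, so p-values across the pairs measure only the spread between these libraries.

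A dividing cell enters mitosis when cyclin B and its kinase CDK1 are activated by CDC25 phosphatases. Polo-like and Aurora kinases then build the spindle, kinetochores join the chromosomes to it, and a checkpoint holds the cell until all are attached. The anaphase-promoting complex (APC/C) with CDC20 ends mitosis by marking securin and the cyclins for destruction, and motors and a contractile ring divide the cell. Most of these genes are transcribed late in the cell cycle under the MuvB complexes with B-MYB and FOXM1, and repressed in resting cells by the DREAM complex, which binds the CHR element of their promoters. In prostate cancer, the antigen made by MKI67 is a common stain for proliferating cells.

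The 6 libraries held 8661337 to 22433655 counts, and every resistant library was deeper than its parent's. Protein-coding genes took 62.8% to 79.5% of the counts, and their share was also higher in the resistant library of each pair (67.8% and 77.4% for LnCaP, 62.8% and 68.0% for VCaP, 68.3% and 79.5% for LAPC4). The part of depth and of this share in the differences below was not tested. The lowest count of any of the 44 genes was 97, for SPC25 in LnCaP-abl, and the highest was 14714, for TOP2A. The prostate markers KLK2, KLK3, FOLH1 and HOXB13 summed to 859.6, 1637 and 230.9 scaled FPKM in LnCaP, VCaP and LAPC4 and to 183.7, 707.5 and 30.5 in LnCaP-abl, VCaP-CR and LAPC4-CR. All 4 prostate markers had reads in every library, and KLK2 and KLK3 were lowest in LnCaP-abl, at 0.65 each, and in LAPC4-CR, at 1.29 and 2.01. HOXB13 was at 1.60 in LAPC4-CR and at 31.3 to 65.8 in the other 5 libraries. The part of these marker differences in the results was not tested. Blood markers (PTPRC, CD3E) summed to at most 0.95, the endothelial marker CDH5 reached at most 0.397 and fibroblast markers (COL1A1, COL1A2, DCN) at most 2.03. ERG, the fusion gene of VCaP cells, was at 16.9 in VCaP, 5.46 in VCaP-CR and at most 0.186 elsewhere.

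The mitotic genes were mostly lower in LnCaP-abl than in LnCaP, mostly lower by a smaller amount in VCaP-CR than in VCaP, and mostly higher in LAPC4-CR than in LAPC4. A change is given as the log2 difference of scaled FPKM plus 1, resistant minus sensitive, which makes changes of low genes look smaller. The median change of the 44 genes was -0.38 for LnCaP, -0.17 for VCaP and 0.30 for LAPC4, beside medians of -0.01, -0.01 and -0.02 over all genes tested and of 0.08, -0.01 and 0.02 over the 11328 protein-coding ones. In the LnCaP pair 38 of 44 were lower, against 50.8% of all genes tested. In the VCaP pair 32 were lower, against 51.4%. In the LAPC4 pair 36 were higher, against 48.3%, and 8 lower, against 51.7%. The VCaP median was -0.09 with FPKM as deposited and -0.26 without the 5 genes with a deposited length over 8000 bases. That length is the one behind FPKM, not the span on the chromosome. In bulk RNA, fewer cells in G2 and mitosis and less RNA of these genes per cell cannot be told apart.

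Large differences were few in the LnCaP and VCaP pairs. Past 2-fold on this scale lay 2 genes that were lower in LnCaP-abl, CCNA2 and HMMR, where 6.17% of all genes passed, and 0 that were higher, where 6.23% passed. In the VCaP pair 0 genes passed in either direction, against 2.36% higher and 2.03% lower of all genes. In the LAPC4 pair 8 genes passed as higher in LAPC4-CR, against 5.22% of all genes, and 0 as lower, against 5.29%. Those 8 were MKI67, CENPF, ANLN, KIF23, BUB1B, CENPE, ASPM and RACGAP1. With a pseudocount of 5 in place of 1, the 8 became 2, MKI67 and CENPF, and the 2 of the LnCaP pair became 0. With a pseudocount of 0.25 they became 9 and 3.

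Counting error gives another reading of the same differences. Each count has an exact 95% Poisson interval, and each fold an exact 95% interval from the 2 counts. Both cover counting error only. A fold interval can exclude equality where the 2 count intervals overlap, so overlap does not mean equal levels. Intervals said to overlap or lie apart are those of the counts. The intervals did not overlap for 27 genes lower in LnCaP-abl (21.6% of all genes) and 3 higher (26.3%). In the VCaP pair they did not overlap for 19 genes lower (17.4%) and 9 higher (18.2%), and in the LAPC4 pair for 28 higher (27%) and 3 lower (26.6%). As a share of all protein-coding counts, the 44 genes took 0.465% in LnCaP (95% Wilson interval 0.460 to 0.471) and 0.302% in LnCaP-abl (0.299 to 0.306). The share was 0.583% in VCaP (0.577 to 0.588) and 0.567% in VCaP-CR (0.563 to 0.571), and 0.394% in LAPC4 (0.390 to 0.399) and 0.550% in LAPC4-CR (0.546 to 0.553). The share sums counts, so long and abundant genes weigh more in it, and its intervals cover counting error only. Of the 33354 counts in LAPC4, MKI67 held 663 and CENPF 931. Of the 97980 in LAPC4-CR, they held 7397 and 9269.

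**Figure D1:**
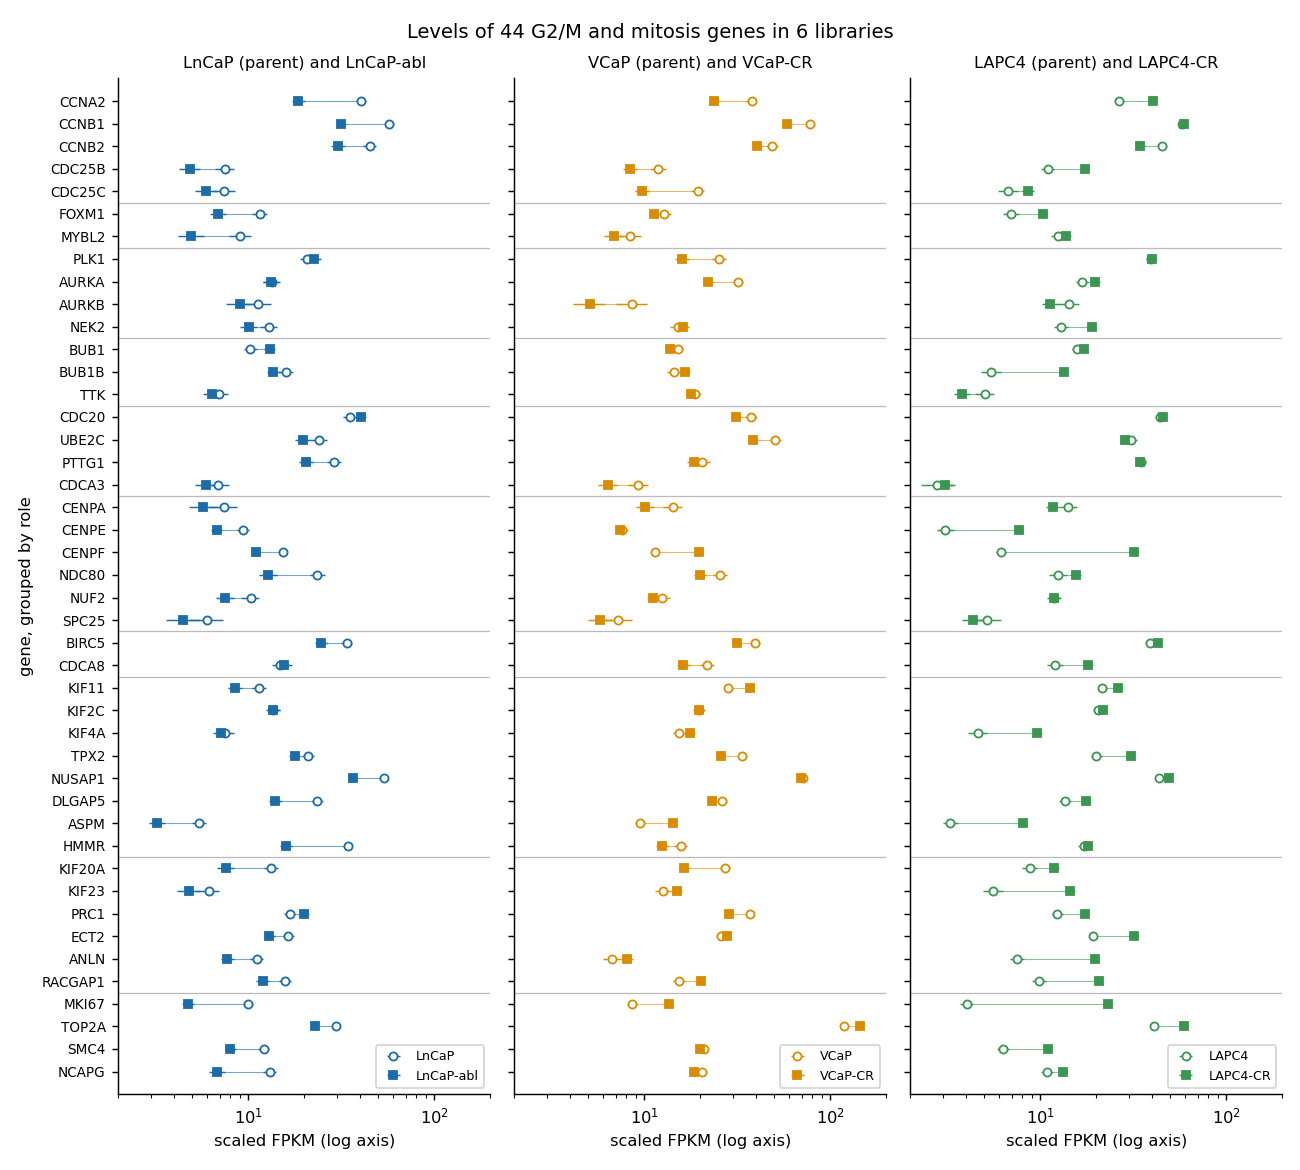
Scaled FPKM (log axis) of each of the 44 genes in the parent line (open circle) and the resistant line (filled square) of each pair, with exact 95% Poisson intervals as bars, 1 library per line; grey lines part the roles. Filled squares lie left of the circles for 38 genes in the LnCaP pair and 32 in the VCaP pair, and right of them for 36 genes in the LAPC4 pair.

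Only some genes kept one direction. Lower in all 3 resistant lines were 8 genes, or 18.2%, against 16.7% of all genes tested, which is near the background. They were CCNB2, AURKB, TTK, UBE2C, PTTG1, CENPA, NUF2 and SPC25, of which PTTG1 and NUF2 were higher in LAPC4-CR with FPKM as deposited, by 0.06 and 0.08. Higher in all 3 were 0 genes, against 15.1%, and past 2-fold in all 3 pairs were 0 higher and 0 lower, against 0.0617% and 0.0988%. Lower in the LnCaP and VCaP pairs and higher in the LAPC4 pair were 18 genes (11.4% of all genes), and lower in the LnCaP pair alone were 12 (11.9%). The remaining 6, PLK1, BUB1, CDC20, CDCA8, KIF2C and PRC1, were lower in the VCaP pair alone (9.82%). The other patterns held 0 genes: higher in the VCaP pair alone (10.9%), in the LnCaP pair alone (13.4%) or in those 2 alone (10.7%).

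Across the 3 pairs, no difference between the states passed the test. With edgeR's quasi-likelihood test, parental line as a block and Benjamini-Hochberg adjustment over all genes, 0 of the 44 genes were called at 5% in either direction, and 0% of all genes were. At an unadjusted p under 0.05, 0 of the 44 passed in either direction, against 4.48% of all genes higher and 3.38% lower. DESeq2 called 0 of the 44 adjusted, against 0.506% of all genes higher and 0.34% lower, and 0 unadjusted, against 4.75% and 3.29%. With limma 0 of the 44 were called adjusted, as were 0% of all genes, and 0 unadjusted, against 3.86% higher and 4.03% lower. The edgeR log2 fold changes of the 44 ran from -0.45 (AURKB) to 0.90 (CENPF), and their adjusted p from 0.703 to 0.997. The smallest p belonged to CCNB2, with a log2 fold change of -0.39 (SE 0.23, adjusted p 0.703 in edgeR), lower in 3 of 3 pairs. CENPF followed at 0.90 (SE 0.54, adjusted p 0.716 in edgeR), higher in 2 of 3 pairs, and AURKB at -0.45 (SE 0.29, adjusted p 0.727 in edgeR), lower in 3 of 3. Without the LnCaP pair, 5 genes were higher at an unadjusted p under 0.05 (ANLN, ASPM, CENPF, MKI67 and RACGAP1), or 11.4%, against 5.67% of all genes. Without the LAPC4 pair 2 were lower (CCNA2 and KIF20A), or 4.55%, against 2.53%; 0 of these passed after adjustment in edgeR.

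Promoter sequence was not used to choose these genes. RefSeq windows of GRCh38.p14, from 250 bases before to 50 after each start, were found for 37 of the 44 genes; AURKA, BIRC5, FOXM1, RACGAP1, TPX2, TTK and UBE2C had none in the table. Both strands were searched for the CCAAT box (CCAAT), the element bound by NF-Y, and for an E2F site (TTCGCGC or TTGGCGC). The CHR, the element bound by MuvB complexes, was searched in 2 spellings only, TTTGAA and TTCGAA. Overlapping matches were counted separately. The CHR letters stood in a window of 28 of 37 genes (75.7%), against 15.1% of 8228 protein-coding genes tested and 19.5% of all 27305 genes of the table. The CCAAT letters stood in 28 of 37 (75.7%), against 44.3% and 39.7%, and both motifs in 22 (59.5%), against 6.5% and 7.85%. At least 2 CCAAT boxes stood in 19 genes (51.4%), against 17.1% and 12.9%. The E2F letters stood in 4 genes (10.8%), against 11% and 6.1%. A match describes the letters and is not a binding site, and a gene without a match may carry a CHR in a spelling that was not searched.

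The 150 bases before the start are printed for 6 genes: CCNA2 and HMMR, the lowest in the LnCaP pair, MKI67 and CENPF, the highest in the LAPC4 pair, and CCNB1 and CCNB2, sister cyclins with changes of 0.04 and -0.37 in the LAPC4 pair. They are read 5′ to 3′ on the strand of the gene, with motif matches in capitals. The stretches are chr4:121823884-121824033 (minus strand) for CCNA2, chr5:163460482-163460631 (plus) for HMMR, chr5:69167000-69167149 (plus) for CCNB1, chr15:59104996-59105145 (plus) for CCNB2, chr10:128126424-128126573 (minus) for MKI67 and chr1:214603045-214603194 (plus) for CENPF, all in GRCh38.p14.
CCNA2: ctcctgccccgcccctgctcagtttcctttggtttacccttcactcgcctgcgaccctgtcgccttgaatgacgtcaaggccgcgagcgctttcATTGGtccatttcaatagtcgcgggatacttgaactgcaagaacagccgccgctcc
HMMR: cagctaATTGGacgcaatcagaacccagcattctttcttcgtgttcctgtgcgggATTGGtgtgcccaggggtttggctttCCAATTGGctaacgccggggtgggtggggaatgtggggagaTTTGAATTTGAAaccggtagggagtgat
CCNB1: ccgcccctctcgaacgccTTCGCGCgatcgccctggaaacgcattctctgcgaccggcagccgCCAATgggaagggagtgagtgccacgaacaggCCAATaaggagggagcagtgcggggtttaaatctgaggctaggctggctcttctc
CCNB2: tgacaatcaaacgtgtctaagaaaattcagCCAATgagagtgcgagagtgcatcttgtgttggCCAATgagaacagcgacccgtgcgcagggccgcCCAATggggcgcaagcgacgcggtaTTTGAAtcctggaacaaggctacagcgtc
MKI67: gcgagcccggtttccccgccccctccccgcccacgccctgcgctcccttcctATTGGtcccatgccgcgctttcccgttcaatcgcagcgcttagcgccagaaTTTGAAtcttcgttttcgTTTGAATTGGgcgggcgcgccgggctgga
CENPF: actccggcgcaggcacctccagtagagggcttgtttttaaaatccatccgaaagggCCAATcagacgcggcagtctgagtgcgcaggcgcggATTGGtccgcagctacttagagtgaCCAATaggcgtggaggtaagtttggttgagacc
CCNB2 had 3 CCAAT boxes that begin 120, 87 and 54 bases before the start, and a CHR 29 bases before it. HMMR had 4 CCAAT matches, of which 69 and 66 bases before the start overlap, and adjoining CHR matches 28 and 22 bases before the start. MKI67 had CHR matches 47 and 29 bases before the start, the latter overlapping a reversed CCAAT box. CENPF had CCAAT boxes at 94, 58 and 33 bases and no CHR letters in this stretch, CCNA2 had 1 CCAAT box at 56, and CCNB1 had CCAAT boxes at 87 and 55 and the E2F letters at 132. The 28 genes with CHR letters had median changes of -0.38 (LnCaP pair), -0.14 (VCaP) and 0.33 (LAPC4), and the 9 genes without them -0.49, -0.26 and 0.12. The ranges of the 2 sets overlapped in every pair, and the 9, CCNA2 and CCNB1 among them, may hold a CHR in another spelling.

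The cyclins and CDC25 phosphatases start mitosis. All 5 were lower in LnCaP-abl and all 5 in VCaP-CR, with median changes of -0.55 and -0.46, and 4 of 5 were higher in LAPC4-CR, with a median of 0.31. CCNA2 (chr4:122957049-122964537 in hg18, the build of the deposited tables), cyclin A2 of S and G2 phase, stood at 40.1 and 18.5 scaled FPKM (LnCaP, LnCaP-abl), 37.6 and 23.6 (VCaP, VCaP-CR), and 26.5 and 40.3 (LAPC4, LAPC4-CR). LnCaP-abl was thus the lowest library and LAPC4-CR the highest for CCNA2, 2.17-fold lower (1.96 to 2.40) and 1.52-fold higher (1.42 to 1.64) than their parents. EXOSC9, which overlaps CCNA2 by 578 bases, was at 7.17 and 3.53, 3.65 and 2.61, and 4.4 and 6.65 in the same order; whether the counting used strand is not given, and the part of the shared bases was not tested.

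CCNB1, the main mitotic cyclin (chr5:68498593-68509828, hg18), stood at 57.3 and 31.5 (LnCaP, LnCaP-abl), 77.8 and 58.4 (VCaP, VCaP-CR), and 57.7 and 59.4 (LAPC4, LAPC4-CR). CCNB1 was thus lower in 2 resistant lines, 1.82-fold (1.67 to 1.98) and 1.33-fold (1.25 to 1.41), while in the LAPC4 pair the interval of the ratio, 0.974 to 1.09, included equality. CCNB2, its sister, was at 44.9 and 30.4, 48.5 and 40.2, and 45 and 34.5 in the same order. It was lower in all 3 resistant lines and its count intervals did not overlap in any pair, which of the 8 genes lower throughout held for CCNB2 alone. The fold intervals of CENPA, too, did not include equality in any pair. The ratio of CCNB1 to CCNB2 per length was 1.28 and 1.04 in the LnCaP pair, 1.60 and 1.46 for VCaP, and 1.28 and 1.72 for LAPC4.

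CDC25C, the phosphatase that activates cyclin B with CDK1, had the lowest change of the 44 genes in the VCaP pair, -0.93. Its levels were 7.42 and 5.92 (LnCaP, LnCaP-abl), 19.4 and 9.72 (VCaP, VCaP-CR), and 6.72 and 8.59 (LAPC4, LAPC4-CR). VCaP stood apart as the highest library, and VCaP-CR was 1.99-fold lower (1.76 to 2.25). FAM53C, which overlaps CDC25C (chr5:137648853-137701943, hg18) by 6421 bases, went from 24.4 to 9.99 in the same pair; the part of the shared bases was not tested. CDC25B, the phosphatase that starts CDK activation at the centrosome, had changes of -0.53, -0.46 and 0.62.

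FOXM1 and MYBL2 encode transcription factors that drive the late cell cycle program. FOXM1 stood at 11.5 and 6.86 (LnCaP, LnCaP-abl), 12.8 and 11.3 (VCaP, VCaP-CR), and 6.96 and 10.3 (LAPC4, LAPC4-CR). It was 1.68-fold lower in LnCaP-abl (1.47 to 1.92) and 1.48-fold higher in LAPC4-CR (1.33 to 1.66). In the VCaP pair its count intervals overlapped, while its fold interval, 0.794 to 0.980, did not include equality. MYBL2, which encodes B-MYB, was at 9.02 and 4.92, 8.39 and 6.86, and 12.5 and 13.7 in the same order. For MYBL2 the LnCaP pair alone had intervals that did not overlap, 1.83-fold lower in LnCaP-abl (1.49 to 2.27). Its fold interval in the VCaP pair, 0.685 to 0.978, did not include equality either. FOXM1 overlaps ITFG2 by 2111 bases, C12orf32 by 783 and a Y RNA entry by 85. ITFG2 was at 0.805 to 3.29 and C12orf32 at 13.1 to 18.6, above FOXM1 in every library; the part of the shared bases was not tested.

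The mitotic kinases differed from each other within each pair. PLK1, the polo-like kinase, stood at 20.8 and 22.7 (LnCaP, LnCaP-abl), 25.2 and 15.9 (VCaP, VCaP-CR), and 39.4 and 39.9 (LAPC4, LAPC4-CR). Both LAPC4 libraries were above the other 4, and the VCaP pair alone had intervals apart, 1.58-fold lower in VCaP-CR (1.41 to 1.78). AURKA, the Aurora kinase of the spindle poles, was at 13.3 and 13.2, 31.9 and 22.1, and 16.8 and 19.8 in the same order, highest in VCaP. AURKB, the Aurora kinase of the chromosomal passenger complex, was at 11.2 and 8.98, 8.56 and 5.08, and 14.2 and 11.3, lower in each resistant line. Its intervals did not overlap in the VCaP pair, where VCaP-CR was 1.69-fold lower (1.28 to 2.23). In the LAPC4 pair they overlapped, while the fold interval, 0.673 to 0.940, did not include equality. The level of AURKA over that of AURKB was 1.19 and 1.47 in the LnCaP pair and 1.18 and 1.75 in the LAPC4 pair, against 3.73 and 4.35 in the VCaP pair, which stood apart. NEK2, a kinase that parts the centrosomes, had changes of -0.32, 0.09 and 0.52.

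Of the spindle checkpoint, BUB1 and TTK are kinases at the kinetochore and BUB1B encodes BUBR1, an inhibitor of the APC/C. BUB1 stood at 10.3 and 13.0 (LnCaP, LnCaP-abl), 15.2 and 13.8 (VCaP, VCaP-CR), and 15.7 and 17.2 (LAPC4, LAPC4-CR). Its change of 0.32 was the highest of the 44 genes in the LnCaP pair, 1.27-fold (1.14 to 1.41). BUB1B was at 15.9 and 13.6, 14.4 and 16.5, and 5.43 and 13.3 in the same order, and LAPC4 stood below the other 5 libraries; LAPC4-CR was 2.45-fold above it (2.15 to 2.81). TTK was at 6.91 and 6.35, 18.8 and 17.8, and 5.02 and 3.79. The VCaP libraries were both above the other 4 for TTK, and LAPC4-CR was 1.32-fold below LAPC4 (1.14 to 1.54). BUB1B and TTK thus differed in opposite directions in that pair.

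The genes of anaphase and the APC/C differed little in the LAPC4 pair, with changes from -0.10 to 0.10. CDC20, the activator of the APC/C, stood at 35 and 40.5 (LnCaP, LnCaP-abl), 37.5 and 31.1 (VCaP, VCaP-CR), and 43.8 and 45.7 (LAPC4, LAPC4-CR). It varied least of the 44 genes, with a highest library 1.47 times the lowest, and was higher in LnCaP-abl than in LnCaP by 1.16-fold (1.05 to 1.28). UBE2C, the ubiquitin-conjugating enzyme of the APC/C, was at 24.0 and 19.6, 50.5 and 38.2, and 30.6 and 28.4 in the same order. UBE2C was lower in each resistant line, with intervals apart in the VCaP pair alone, 1.32-fold (1.20 to 1.45). Its fold interval in the LnCaP pair, 0.706 to 0.946, did not include equality either. PTTG1, securin, had changes of -0.49, -0.14 and -0.02, and CDCA3, a substrate of the APC/C, -0.17, -0.48 and 0.10.

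At the centromere and kinetochore, all 6 genes were lower in LnCaP-abl, 5 of 6 were lower in VCaP-CR, and 3 of 6 were higher in LAPC4-CR. CENPF, a large kinetochore protein (chr1:212843161-212904554, hg18), stood at 15.3 and 11 (LnCaP, LnCaP-abl), 11.4 and 19.6 (VCaP, VCaP-CR), and 6.16 and 31.8 (LAPC4, LAPC4-CR). LAPC4 was the lowest and LAPC4-CR the highest library, 5.17-fold apart (4.83 to 5.53), and VCaP-CR was 1.72-fold above VCaP (1.61 to 1.83). CENPE, the kinetochore motor, had changes of -0.42, -0.02 and 1.09. Of the NDC80 complex, which holds the microtubule, NDC80 had changes of -0.83, -0.35 and 0.29 and NUF2 of -0.41, -0.15 and -0.003. SPC25, of the same complex and the lowest of the 44 genes by mean level, was at 5.98 and 4.45, 7.22 and 5.79, and 5.17 and 4.37. Its count intervals overlapped in every pair, while its fold interval in the LnCaP pair, 0.558 to 0.993, did not include equality. CENPA, the histone of the centromere, had changes of -0.32, -0.45 and -0.26.

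The chromosomal passenger genes BIRC5 and CDCA8 encode survivin and borealin, the partners of Aurora B. BIRC5 stood at 33.9 and 24.6 (LnCaP, LnCaP-abl), 39.3 and 31.5 (VCaP, VCaP-CR), and 38.7 and 42.9 (LAPC4, LAPC4-CR). Its intervals were apart in every pair, 1.38-fold lower (1.25 to 1.52), 1.25-fold lower (1.15 to 1.35) and 1.11-fold higher (1.04 to 1.18). CDCA8 had changes of 0.06, -0.40 and 0.55, and AURKB of -0.29, -0.65 and -0.31. AURKB was thus lower in LAPC4-CR while its 2 partners were higher.

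Of the spindle and motor genes, 7 of 8 were lower in LnCaP-abl (median -0.47), 5 of 8 were lower in VCaP-CR (median -0.02), and 8 of 8 were higher in LAPC4-CR (median 0.31). HMMR, a spindle protein and hyaluronan receptor (chr5:162819753-162851525, hg18), stood at 34.2 and 15.9 (LnCaP, LnCaP-abl), 15.7 and 12.4 (VCaP, VCaP-CR), and 17.1 and 18.0 (LAPC4, LAPC4-CR). LnCaP stood alone above the other 5 libraries, and LnCaP-abl was 2.15-fold lower (1.96 to 2.36). ASPM, which focuses the spindle poles, was at 5.43 and 3.24, 9.43 and 14.3, and 3.29 and 8.06 in the same order, so it was lower in LnCaP-abl by 1.67-fold (1.47 to 1.90) and higher in VCaP-CR by 1.52-fold (1.41 to 1.63) and in LAPC4-CR by 2.45-fold (2.22 to 2.72). KIF11, the motor that parts the spindle poles, had changes of -0.39, 0.38 and 0.27. KIF2C, a microtubule-depolymerising kinesin, had the smallest changes in the LnCaP and VCaP pairs, 0.003 and -0.005. KIF4A had changes of -0.06, 0.19 and 0.92; its near-identical retrocopy KIF4B was listed at 2.86 and 1.99, 5.0 and 5.90, and 1.91 and 3.62, and how reads shared by both were counted is not given. NUSAP1, TPX2 and DLGAP5, which bundle or nucleate spindle microtubules, were higher in LAPC4-CR and lower in the other resistant lines, at -0.54, -0.03 and 0.16, at -0.23, -0.36 and 0.59, and at -0.71, -0.16 and 0.34.

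The cytokinesis genes had the highest median change of any role in the LAPC4 pair, 0.85, with 6 of 6 higher and intervals apart for all 6. Of all genes tested, 27% had intervals apart and higher there. Changes in that pair also went along with deposited length (r of 0.76 among the 44 genes). These 6 ran from 3696 (KIF23) to 6012 bases (ANLN), and the part of length in the ranking of roles was not tested. ANLN, anillin of the contractile ring, stood at 11.1 and 7.72 (LnCaP, LnCaP-abl), 6.67 and 8.09 (VCaP, VCaP-CR), and 7.48 and 19.6 (LAPC4, LAPC4-CR). LAPC4-CR stood above the other 5 libraries, 2.62-fold above LAPC4 (2.40 to 2.87). RACGAP1 and KIF23, the 2 parts of centralspindlin, were 2.11-fold (1.92 to 2.31) and 2.61-fold higher (2.29 to 2.99) in LAPC4-CR, and ECT2, the exchange factor they recruit, 1.65-fold (1.56 to 1.76). KIF20A, a motor of the central spindle (chr5:137542307-137551303, hg18), was at 13.3 and 7.56, 27.2 and 16.3, and 8.78 and 11.8. In VCaP-CR it was 1.66-fold lower (1.53 to 1.81) and PRC1 1.29-fold lower (1.22 to 1.38), where RACGAP1, KIF23, ECT2 and ANLN had changes of 0.38, 0.23, 0.11 and 0.25. PRC1, which bundles the central spindle, was at 16.7 and 19.9, 37.0 and 28.6, and 12.3 and 17.4, and was among the 3 genes with intervals apart and higher in LnCaP-abl, 1.20-fold (1.09 to 1.31).

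Chromosome structure genes were lower in LnCaP-abl in 4 of 4 cases (median -0.69) and higher in LAPC4-CR in 4 of 4 (median 0.62). MKI67, which coats mitotic chromosomes (chr10:129784913-129814639, hg18), stood at 9.96 and 4.71 (LnCaP, LnCaP-abl), 8.55 and 13.6 (VCaP, VCaP-CR), and 4.01 and 23.2 (LAPC4, LAPC4-CR). The order of the resistant lines was LAPC4-CR, VCaP-CR and LnCaP-abl, and their ratios to the parents were 5.79 (5.35 to 6.28), 1.59 (1.48 to 1.71) and, downward, 2.11 (1.92 to 2.32). TOP2A, the topoisomerase that untangles chromosomes and the highest of the 44 genes by mean level (69.3), was at 29.6 and 22.7, 119 and 145, and 41.0 and 59.0. Both VCaP libraries stood above the rest for TOP2A, and its differences within pairs were smaller, 1.30-fold lower (1.22 to 1.39), 1.22-fold higher (1.18 to 1.25) and 1.44-fold higher (1.38 to 1.5). MKI67 relative to TOP2A, per length, was 0.336 and 0.207 in the LnCaP pair, 0.0719 and 0.0942 for VCaP, and 0.0977 and 0.393 for LAPC4, parent first. The condensin genes SMC4 and NCAPG had changes of -0.54 and -0.85, -0.07 and -0.14, and 0.72 and 0.26.

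**Figure D2:**
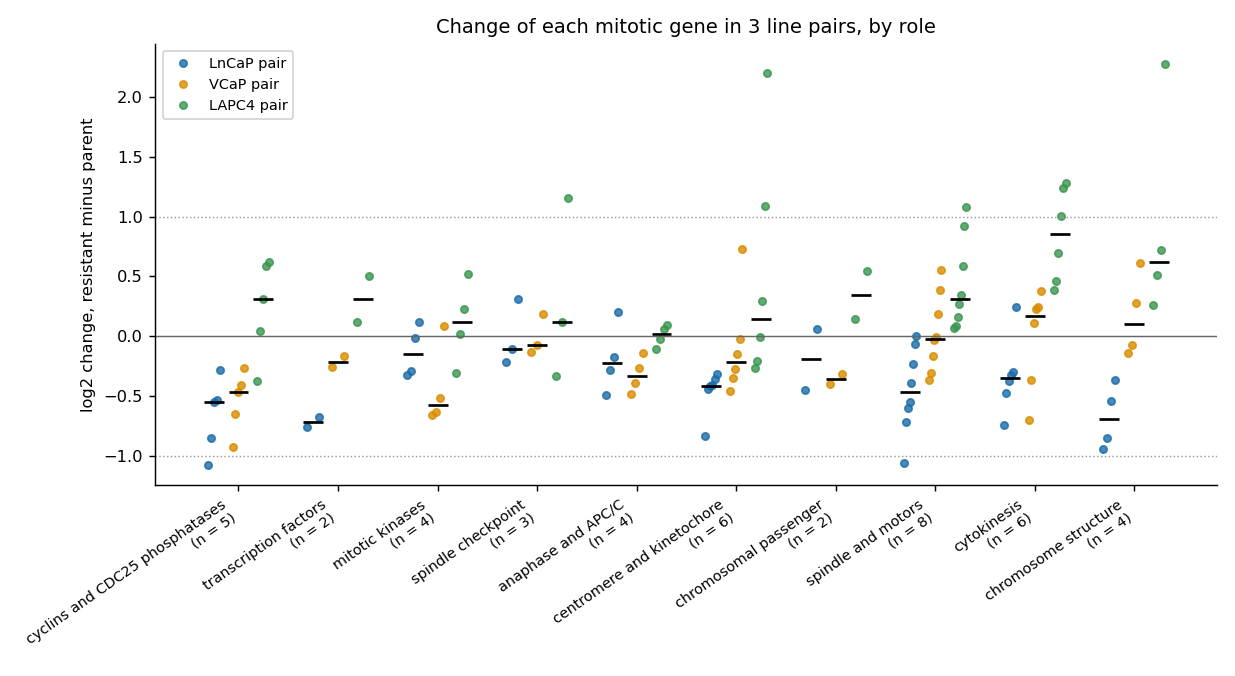
Log2 change (resistant minus parent, scaled FPKM plus 1) of each of the 44 genes, grouped by role along the horizontal axis, with 1 point per gene, 1 colour per pair, black bars for medians and dotted lines at 2-fold. Cytokinesis genes lie highest in the LAPC4 pair (median 0.85), and the points above 2 are MKI67 (2.27) and CENPF (2.20).

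The deposited gene length went along with the change in 2 of the pairs. It is the length behind FPKM and not the span on the chromosome. CENPE, for example, has 9444 bases by this length but spans chr4:104246412-104339015 (hg18). Across the 44 genes, Pearson's r between the change and the log2 length of the gene was -0.12 for LnCaP, 0.68 for VCaP and 0.76 for LAPC4; the genes of a pair share their libraries and are not independent, so r is a description. Across the 11328 protein-coding genes it was 0.095, 0.22 and 0.16. The further cell cycle lists described below also had positive r in the VCaP and LAPC4 pairs. In the same order of pairs, r was 0.33, 0.55 and 0.28 for 60 other G2/M genes and 0.078, 0.48 and 0.32 for 30 G1/S genes. For 14 genes of the APC/C list it was 0.14, 0.21 and 0.73, and for 17 DREAM and CDK inhibitor genes -0.075, 0.36 and 0.60. The 5 genes with a deposited length over 8000 bases were SMC4, CENPE, ASPM, CENPF and MKI67. They had medians of -0.54, 0.55 and 1.09, beside 0.16, 0.15 and 0.21 for the 1668 protein-coding genes of that length. When the median change of the 500 protein-coding genes nearest in length was taken off each gene, r among the 44 was -0.26, 0.52 and 0.67. MKI67 then stood at -1.10, 0.40 and 1.99 and CENPF at -0.64, 0.53 and 1.95, and the count past 2-fold in LAPC4-CR went from 8 to 5 (MKI67, CENPF, ANLN, KIF23 and BUB1B). Without the 5 genes longer than 8000 bases it was 4. This step was added after seeing the data.

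**Figure D3:**
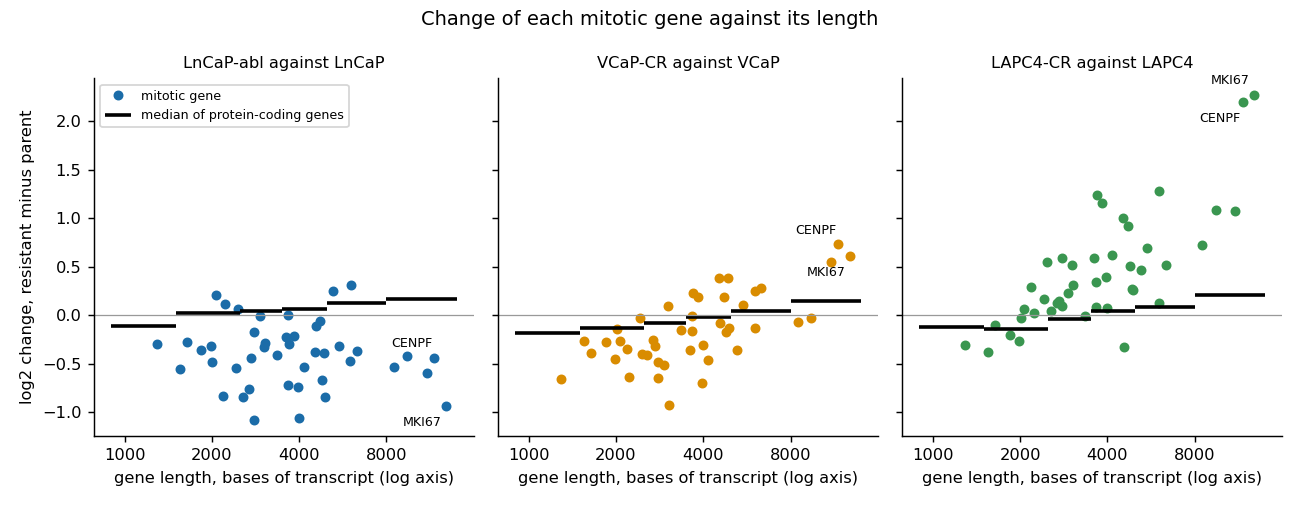
Log2 change of each of the 44 genes (points) against its deposited length in bases (log axis), 1 panel per pair. Black bars give the median change of protein-coding genes in each length range. In the VCaP and LAPC4 panels longer genes tend to lie higher (r of 0.68 and 0.76), and in the LnCaP panel they do not (r of -0.12). Not all of the longest genes lie at the top: CENPE and SMC4 lie at -0.02 and -0.07 in the VCaP panel.

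The level of the group also differed between the lines. Summed over the 44 genes, scaled FPKM was 798.1 and 589.0 (LnCaP, LnCaP-abl), 1115 and 1014 (VCaP, VCaP-CR), and 760.7 and 966.7 (LAPC4, LAPC4-CR). The median level per gene was 13.3, 11.5, 19.5, 17.7, 12.5 and 17.7 in that order, so VCaP-CR and LAPC4-CR were level. VCaP was the highest of the 6 libraries for 20 genes, against 17.1% of all genes tested, LAPC4-CR for 14 (16.8%), VCaP-CR for 6 (15.6%) and LnCaP-abl for 0 (19.1%). LnCaP-abl was the lowest for 22 genes (19.6%), LAPC4 for 12 (17%) and VCaP for 1 (16.1%), which was ANLN. Among the resistant lines, VCaP-CR and LAPC4-CR were each above LnCaP-abl for 39 of the 44 genes (49.1% and 50.9% of all genes) and at least 2-fold for 11 (13.8% and 9.12%), with median differences of 0.64 and 0.59, and from each other they differed by a median of 0.03. Among the sensitive lines, VCaP was above LnCaP for 33 genes (49.1% of all genes; median 0.40), and LAPC4 was below VCaP for 35 (50.2%; median -0.70). With 1 library per line no test of a difference between lines was made.

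Over the 6 libraries the genes followed each other only in part. Among 946 pairs of the 44 genes, Pearson's r of log2 levels had a median of 0.43 (from -0.85 to 0.98), and 737 were above 0; each r rests on 6 libraries that share their depth and scaling, so it is a description. TPX2 (0.95), NCAPG (0.94) and KIF23 (0.91) were most like the mean of the other genes. AURKB (-0.42), CDC20 (-0.32), HMMR (-0.20), PTTG1 (-0.18) and PLK1 (-0.13) ran against it. Of these 5, HMMR was highest in LnCaP and AURKB and PTTG1 in LAPC4, 2 lines where the group as a whole was lower than in VCaP. PLK1 and CDC20 were highest in LAPC4-CR.

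Cell cycle genes outside the 44 were read from 4 further lists. The 60 other G2/M genes showed median changes of -0.30 (LnCaP), -0.15 (VCaP) and 0.36 (LAPC4), with 47 lower, 44 lower and 46 higher. Of all genes tested, 50.8% were lower, 51.4% lower and 48.3% higher in these pairs. The 30 G1/S genes had -0.44, -0.26 and 0.53, with 25 lower, 26 lower and 25 higher. The 14 genes of the APC/C list (subunits and the coactivator FZR1) had -0.10, -0.06 and -0.08, with 6, 5 and 6 higher. The 17 tested of 18 genes of the DREAM complex and CDK inhibitors had 0.12, 0.04 and 0.04, with 10, 10 and 9 higher. Of all genes tested, 49.1%, 48.5% and 48.3% were higher. The edgeR test called 0 genes of any of the 4 lists after adjustment, as it did 0% of all genes. At an unadjusted p under 0.05, 1 other G2/M gene was higher (CASC5) and 1 lower (CENPN), 2 of the DREAM and CDK inhibitor list were higher (LIN54 and RB1), and 0 of the others passed. Of all genes tested, 4.48% were higher and 3.38% lower at that limit.

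CDK1, the kinase that the mitotic cyclins activate, stood at 51.1 and 26.9 (LnCaP, LnCaP-abl), 64.2 and 54.4 (VCaP, VCaP-CR), and 53.5 and 41.5 (LAPC4, LAPC4-CR), lower in each resistant line like CCNB2 and unlike CCNA2. Of the other G2/M genes, the lowest changes in the LnCaP pair were those of CENPN (-1.49) and MAD2L1 (-1.10) and the highest those of CKAP2L (0.43) and KIF18B (0.42). In the VCaP pair they were KIF22 (-0.90) and CENPN (-0.73), and ARHGAP11A (0.86) and CASC5 (0.49). In the LAPC4 pair they were CDK1 (-0.36) and SPC24 (-0.35), and ARHGAP11A (1.76) and SMC2 (1.34). CENPN and SPC24 act at the kinetochore, and SMC2 is the condensin partner of SMC4.

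Among the G1/S genes, CDC45 (-0.94) and MCM7 (-0.90), parts of the replicative helicase, were lowest in the LnCaP pair and CCNE2 (0.80) and SLBP (0.37) highest. TYMS (-1.03) and E2F1 (-0.82) were lowest in the VCaP pair and POLA1 (0.44) and CDC6 (0.11) highest. TK1 (-0.35) and CCND1 (-0.26) were lowest in the LAPC4 pair, and RRM2 (1.80) and E2F2 (1.77) highest. RRM2 and TYMS supply nucleotides for replication, and both were higher in LAPC4-CR and lower in the other resistant lines, as 18 of the 44 mitotic genes were.

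The genes of the APC/C list, the enzyme that CDC20 and UBE2C serve, were within 2-fold in every pair. They include FZR1, which is a coactivator like CDC20 and not a subunit. ANAPC2 (-0.57) and ANAPC16 (-0.37) were lowest in the LnCaP pair, CDC23 (-0.53) and ANAPC10 (-0.27) in the VCaP pair, and CDC26 (-0.69) and ANAPC10 (-0.58) in the LAPC4 pair. FZR1 (0.84) and CDC16 (0.51), ANAPC1 (0.37) and CDC16 (0.19), and CDC23 (0.41) and ANAPC4 (0.36) were highest. Of the DREAM complex and CDK inhibitors, RBL2, which encodes p130, had a change of 1.24 in the LnCaP pair, followed by LIN54 (0.96), the subunit that binds the CHR; CDKN2A (-0.92) and RBL1 (-0.57) were lowest there. In the VCaP pair RB1 (0.87) and LIN52 (0.31) were highest and CDKN1A (-0.94) and CDKN2D (-0.74) lowest, and in the LAPC4 pair LIN54 (0.99) and RBL1 (0.69) were highest and CDKN1C (-1.78) and CDKN2D (-1.25) lowest. CDKN1A, the p21 inhibitor, was at 25.1 and 29.3, 21.1 and 10.5, and 4.0 and 5.49.

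**Figure D4:**
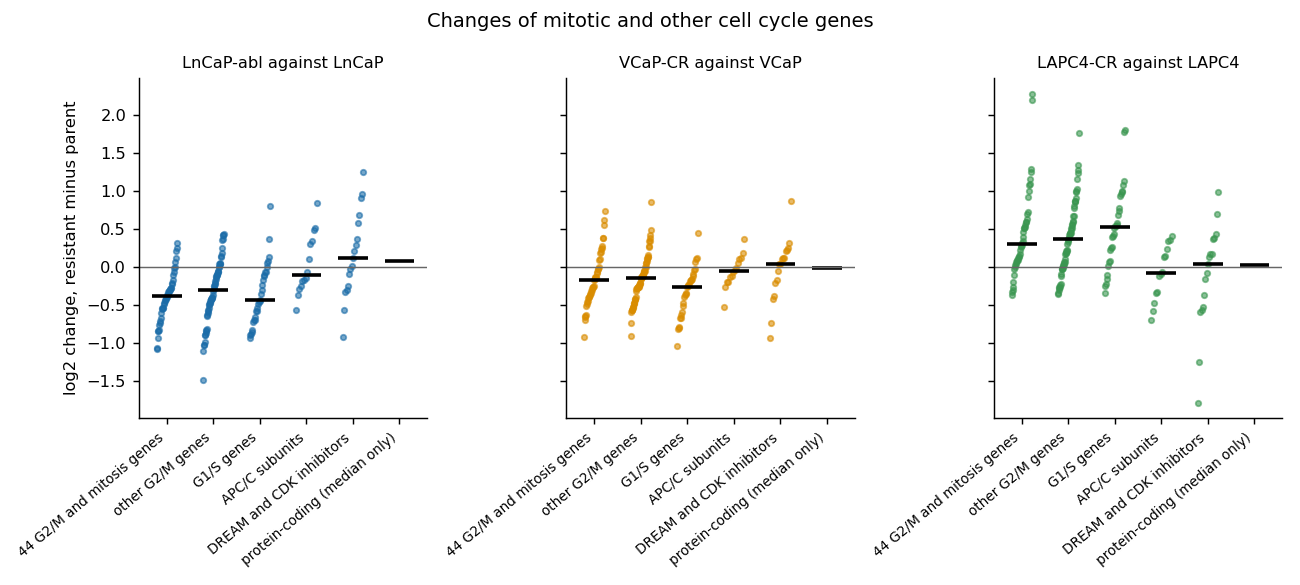
Log2 change (resistant minus parent) of the 44 mitotic genes and of 4 further cell cycle lists, 1 panel per pair, with 1 point per gene and black bars for medians; protein-coding genes are shown by their median alone. The mitotic, other G2/M and G1/S genes have medians below 0 in the LnCaP and VCaP panels and above 0 in the LAPC4 panel (0.30, 0.36 and 0.53).

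Near-identical copies and overlapping genes touch some of these values. Of the 44 genes, 26 overlap another entry of the tables and 15 a protein-coding one. CDC20P1, a pseudogene copy of CDC20, stood at 5.98 and 8.90 (LnCaP, LnCaP-abl), 6.34 and 5.70 (VCaP, VCaP-CR), and 9.70 and 10.2 (LAPC4, LAPC4-CR). It differed in the same direction as CDC20 in all 3 pairs, and how reads that match both were counted is not given. PTTG2, the copy of PTTG1, reached at most 0.349.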

How the data were processed

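RNA of 6 cell lines was sequenced as 1 SOLiD total RNA library each, per the labels' protocols. Per the file headers, each deposited table lists 51698 genes with a count of reads and an FPKM value. The submitters' processing notes name HTSeq and build hg18; the sources used here do not give the aligner, the annotation or the strand setting. The deposited FPKM was rebuilt from count, length and total within 1% for 100% of rows. Rows sharing a symbol were summed (47032 symbols, 345 of them sums, 0 of the 44), and 4302 small RNA symbols were left out by their deposited class. FPKM was divided by a median-ratio factor per library (0.847 to 1.11, from 11580 genes). Tested were genes averaging 1 scaled FPKM or more. Counts went into edgeR 4.0.16 (R 4.3.3; quasi-likelihood, TMM, block by parental line), with DESeq2 1.42.0 and limma 3.58.1 as alternatives. The pairing comes from the line names: deviations from the group means correlated at 0.46, 0.73 and 0.59 across genes within the LnCaP, VCaP and LAPC4 pairs and at -0.48 to -0.06 between lines, where negative values are partly built in. Promoters are RefSeq windows of GRCh38.p14, matched by symbol. Start coordinates have 1 added.

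The 44 genes, the lists, the tests and the rule for named genes were chosen with earlier results of these data known. Values in every library are given for MKI67, TOP2A, CCNB1, CCNB2, CDC20, PLK1, AURKA, AURKB, BIRC5, UBE2C, FOXM1 and MYBL2, for the 3 highest and 3 lowest changes in each pair, for the 3 smallest edgeR p, and for the highest and lowest mean level. Of each other list, the 2 highest and 2 lowest changes in each pair are named, with CDK1 and CDKN1A; BUB1B was added after its values were seen. One gene of the prostate marker list is not reported here.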

Additional observations from a re-analysis of the deposited data

Results flagged for a closer look

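On the log2 scale of scaled FPKM plus 1, the pairs below differed by at least 1.5-fold in opposite directions, or had medians of opposite sign, with 1 library per line; the difference between pairs was not tested in any case. The median change of the 44 genes gave -0.68 for LnCaP minus LAPC4 and -0.47 for VCaP minus LAPC4. For MKI67, the proliferation antigen, the LnCaP change minus the VCaP change was -1.55 and minus the LAPC4 change -3.21. For CCNA2, cyclin A2, the LAPC4 change was above both others, by -1.66 in the LnCaP minus LAPC4 difference and by -1.24 in the VCaP minus LAPC4 difference. For ASPM, of the spindle poles, the LnCaP minus LAPC4 difference was -1.68. On the ratio of scaled FPKM, without the added 1, ASPM in the LnCaP and VCaP pairs (-0.74 and 0.60 as log2), CDC25B in the LnCaP and LAPC4 pairs (-0.62 and 0.67) and SMC4 in the same pairs (-0.59 and 0.81) also passed that limit.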

How the results depend on the processing

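No median change of the 44 genes in a pair turned sign, nor did any single change past 2-fold. The setting named length trend removed took off only the trend of protein-coding genes of like length. After it, r between change and length among the 44 genes was still -0.26, 0.52 and 0.67 (LnCaP, VCaP and LAPC4 pairs). Of 792 changes of single genes under an alternative, 775 moved by less than the spread over the pairs and 20 turned sign, the largest of these from a change of -0.10 (UBE2C in the LAPC4 pair, 0.03 with the length trend removed); 7 turned with FPKM as deposited, 6 with the length trend removed, 5 with protein-coding factors (CCNB1, PLK1 and CDC20 in the LAPC4 pair, CDCA8 and KIF2C in the LnCaP pair) and 2 with TMM factors. The median edgeR log2 fold change of the 44 genes, -0.12, was 0.04 without a filter, 0.07 without the LnCaP pair and 0.05 without the VCaP pair. Calls after adjustment stayed at 0 of the 44 genes in all 11 alternatives of the test; without the parental line as a replicate block edgeR called 0, with a smallest adjusted p of 1.00, and unadjusted calls over all genes went from 725 higher and 548 lower to 249 and 160. Genes called over all genes tested were 0 in edgeR, 82 higher and 55 lower in DESeq2, and 94 higher and 58 lower in edgeR without a filter, where CENPF alone of the 44 passed unadjusted. The count of genes higher in all pairs, 0, was 1 with FPKM as deposited, 1 with TMM factors and 0 to 12 without 1 pair (12 without LnCaP, 6 without VCaP, 0 without LAPC4); that of genes lower in all pairs, 8, was 8 to 26 without 1 pair (26 without LAPC4) and 5 with the length trend removed, which also gave 5 in place of 8 lower in LAPC4-CR. Fewer pairs make a shared direction easier to reach. Counts past 2-fold were 0 in place of 2 (LnCaP pair) and 2 in place of 8 (LAPC4 pair) at a pseudocount of 5. At a pseudocount of 0.25 they were 3 and 9. In the LAPC4 pair the count was 5 with the length trend removed and 4 without genes over 8000 bases. With the length trend removed, MKI67 (-1.10) also lay past 2-fold in the LnCaP pair. The main limit is 1 library per line; FPKM and factors cannot show a change in total RNA per cell.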

Other observations

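The place of the genes on the chromosomes gave a pattern in the VCaP pair that was noticed after the values were seen. CDC25C and KIF20A, with the lowest and the second lowest change there (-0.93 and -0.70), lie close together on chromosome 5. Of the 14 protein-coding genes tested within 1 Mb of CDC25C, other than the 44, 11 were lower in VCaP-CR than in VCaP, with a median of -0.41, against 51.4% lower among all genes tested. Among them SPOCK1, a proteoglycan, had a scaled FPKM of 28.9 and 8.61 (VCaP, VCaP-CR), FAM53C at 24.4 and 9.99, BRD8, a chromatin reader, at 22.7 and 10.6, and CDC23, an APC/C subunit, at 18.5 and 12.5. CTNNA1, alpha-catenin, was higher, at 5.50 and 8.18. FAM53C overlaps CDC25C by 6421 bases, and BRD8 and CDC23 overlap KIF20A by 268 and 66. The part of these shared bases was not tested. Of the same 14 neighbours 10 were lower in the LnCaP pair (median -0.11) and 5 in the LAPC4 pair (median 0.21).

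On chromosome 20, 19 of 20 neighbours of UBE2C were lower in VCaP-CR (median -0.38), 8 of 9 of MYBL2 (-0.38) and 15 of 19 of CDC25B (-0.31), and the 3 genes themselves had changes of -0.39, -0.26 and -0.46. In the same order 3, 4 and 7 of these neighbours were lower in the LnCaP pair and 12, 6 and 9 in the LAPC4 pair. Neighbours of TPX2 and AURKA, on the same chromosome, had medians of 0.00 and 0.00 while TPX2 and AURKA had -0.36 and -0.51. For the 35 genes with at least 5 such neighbours, Pearson's r between the change of the gene and the median of its neighbours was 0.50 in the VCaP pair, 0.22 in the LnCaP pair and 0.14 in the LAPC4 pair; some windows overlap, and all share 1 library per line. Copy number was not measured in these files, and its part was not tested.

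The 60 other G2/M genes held the CHR letters in 67.3% of 49 matched genes and the 26 matched G1/S genes in 7.69%, while the E2F letters stood in 20.4% and 46.2%. RB1 was higher in 3 of 3 resistant lines (4.81 and 7.67, 5.03 and 10.0, 6.69 and 9.41), with an edgeR log2 fold change of 0.73 and an adjusted p of 0.593 in edgeR. So were LIN52, LIN54 and TFDP1 among the 17 tested genes of the DREAM and CDK inhibitor list, and 15.1% of all genes tested were higher in all 3 pairs. Some of these changes were near 0, as for LIN52 in the LnCaP pair (0.009) and TFDP1 in the VCaP pair (0.03).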
